A study of Mus musculus with 2 samples.

Results

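The 10 genes described here make, sense, move or remove extracellular purines and NAD: Entpd1, Nt5e, Adora2a, Slc29a1, Ada, Adk, P2rx7, P2rx4, Art2b and Cd38. They were taken by their GENCODE M21 symbol from the gene and transcript tables of 2 RNA-seq libraries, 10 of 55536 annotated genes, and all 10 symbols were found. The libraries are technical replicates 1 and 2 of biological replicate 1, polyA-selected RNA of regulatory T cells (Treg cells) from a male mouse aged 9 weeks. All the RNA thus shares 1 biosample, there is no treated, mutant or control group, and no comparison between conditions or test was possible. The sorting of the cells, their strain and any pooling of animals were not given in the sources used here.

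Cells under stress or injury release ATP and NAD. CD39, the product of Entpd1, and CD73, the product of Nt5e, act in sequence on the outside of the cell and turn ATP into adenosine, which acts on T cells mainly through the receptor encoded by Adora2a and raises cyclic AMP. Treg cells are known to carry both enzymes. ATP itself opens P2X7 channels, and in mouse T cells extracellular NAD reaches the same channel by another way, since the surface enzyme ART2.2, the product of Art2b, uses NAD to attach ADP-ribose to P2X7.

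For several genes the libraries held transcripts that differ at the start or inside the protein, and their sequences are shown first because the transcript results below turn on them. P2rx7 has an upstream first exon, used by P2rx7-203, whose coding bases lie at chr5:122644074-122644198, and an alternative first exon, used by P2rx7-208, whose coding bases lie inside the first intron of P2rx7-203 at chr5:122650424-122650539. The layout of P2rx7-208 is that of the form known in rodent T cells as P2X7k. The coding sequences of Adk-201 and Adk-207 begin in exon parts at chr14:21052639-21052700 and chr14:21076308-21076321. Those of Entpd1-204 and Entpd1-201 begin at chr19:40612421-40612523 and chr19:40659885-40659900. All 6 exon parts are on the plus strand of GRCm38 (the mm10 assembly), come from GENCODE M21 transcripts, and have the start codon in capitals.
P2rx7-203 first coding exon: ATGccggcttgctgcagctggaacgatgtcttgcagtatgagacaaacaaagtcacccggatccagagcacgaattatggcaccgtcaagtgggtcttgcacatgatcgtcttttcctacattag
P2rx7-208 first coding exon: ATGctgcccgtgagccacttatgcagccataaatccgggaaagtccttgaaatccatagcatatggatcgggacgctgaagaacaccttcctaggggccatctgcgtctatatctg
Adk-201 first coding exon: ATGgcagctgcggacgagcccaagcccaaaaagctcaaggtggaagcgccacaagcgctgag
Adk-207 first coding exon: ATGacgtccaccag
Entpd1-204 first coding exon: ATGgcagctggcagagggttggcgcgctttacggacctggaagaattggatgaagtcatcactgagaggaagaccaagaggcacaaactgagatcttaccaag
Entpd1-201 first coding exon: ATGgaagatataaagg

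Slc29a1 and Art2b forms differ instead by a few bases at an exon end. The Slc29a1 stretch lies at chr17:45588996-45589031 and the Art2b stretch at chr7:101579904-101579942, both on the minus strand. Capitals mark the 6 bases that Slc29a1-203 carries and Slc29a1-202 lacks, and the 9 bases that Art2b-201 carries and Art2b-202 lacks.
Slc29a1-203 exon end: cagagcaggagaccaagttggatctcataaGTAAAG
Art2b-201 exon end: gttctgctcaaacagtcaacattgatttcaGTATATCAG

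All 10 genes were detected, that is, reached 1 TPM or more in both libraries, against 48.0% of 22028 protein-coding genes. They were chosen with earlier results of these data known, so this contrast describes the choice. TPM is a level scaled to the same total in each library and corrected for length, so that genes can be set side by side. The TPM of a gene is the sum over its transcripts, so it also depends on how reads were divided between long and short forms. In Art2b the short form Art2b-201 took 49.9% and 46.8% of TPM in libraries 1 and 2, but 22.8% and 20.7% of estimated counts. The level of Art2b and its place in the order thus depend on that division. Means carry the SD of both libraries (n = 2), which measures technical spread only and no spread between animals. The levels ran from 11.4 ± 0.424 TPM for Ada to 152 ± 27.1 TPM for Art2b. The descending order of mean TPM was Art2b, Nt5e, P2rx7, Slc29a1, Adk, P2rx4, Entpd1, Adora2a, Cd38 and Ada. The ranges of the libraries overlapped between Art2b and Nt5e, between P2rx7 and Slc29a1, and between Slc29a1 and Adk. Art2b and Nt5e changed places between the libraries, as did Slc29a1 and Adk, so these neighbours could not be ordered. P2rx7 stood above Slc29a1 within each library, at 112 against 107 TPM in library 1 and 98.4 against 88.5 TPM in library 2. The other neighbours in this order stood apart in both libraries.

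**Figure D1:**
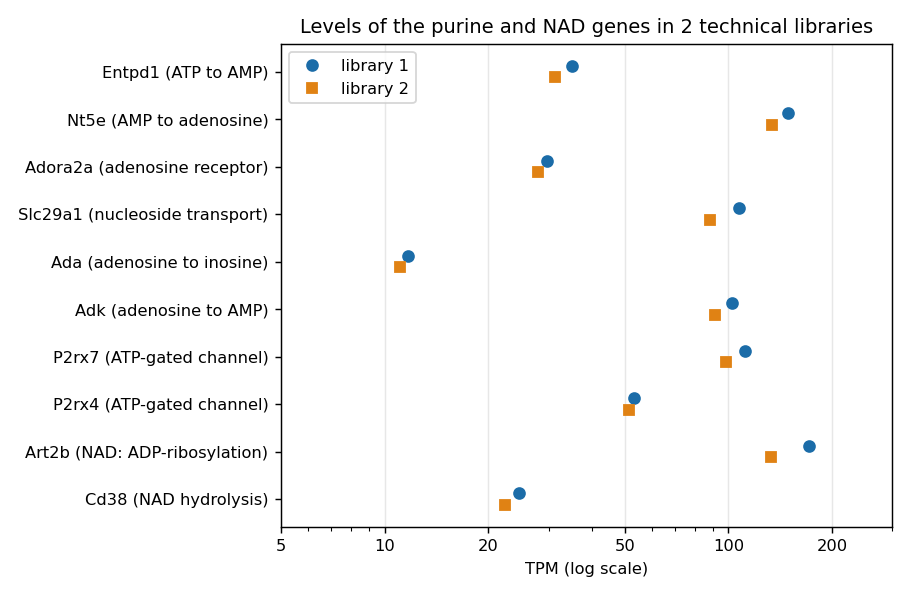
TPM (horizontal, log scale) of each gene in library 1 (circles) and library 2 (squares), with the genes ordered by role. Art2b and Nt5e stand highest, with Art2b at 171 and 133 TPM and Nt5e at 149.5 and 134 TPM in libraries 1 and 2, and Ada lowest, with 11.7 and 11.1 TPM.

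Among the enzymes that make adenosine, the gene of the second step stood above that of the first. Entpd1 (ENSMUSG00000048120.16, chr19:40612366-40741602, plus strand) encodes CD39, which hydrolyses ATP and ADP to AMP, and had 35.0 TPM in library 1 and 31.3 TPM in library 2. Nt5e (ENSMUSG00000032420.8, chr9:88327197-88372092, plus strand) encodes CD73, which converts AMP to adenosine, and had 149.5 TPM in library 1 and 134 TPM in library 2. By gene TPM both libraries gave nearly the same distance between them: the Nt5e level was 4.27 times that of Entpd1 in library 1 and 4.29 times in library 2. Forms annotated as coding held 66.1% and 60.3% of Entpd1 TPM in libraries 1 and 2, and 85.4% and 88.2% of Nt5e TPM. Between coding forms alone the distance was therefore larger, and less alike in the libraries. Of the 10583 detected protein-coding genes, 88.7% lay below Nt5e in mean TPM and 52.2% below Entpd1, which puts Entpd1 near the middle. Behind these values stood 11394 and 10132 estimated counts of Nt5e and 1607 and 1315 of Entpd1, in libraries 1 and 2.

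Other surface enzymes that cleave nucleotides were few and low. Of 7 listed, 3 were detected. The highest was Enpp1, a nucleotide pyrophosphatase, with 11.2 TPM in library 1 and 9.72 TPM in library 2. Acpp, an acid phosphatase that can act on AMP, had 2.89 and 2.81 TPM, and the alkaline phosphatase gene Alpl had 1.11 and 2.84 TPM in the same order. Entpd2, Entpd8 and Enpp3 stayed at or below 0.31 TPM, and Entpd3 was listed at 0 in both libraries. The related nucleoside diphosphohydrolases of organelles were all detected, 4 of 4: Entpd6 had 51.1 and 41.8 TPM, Entpd5 35.9 and 26.6 TPM, Entpd4 27.2 and 31.7 TPM, and Entpd7 3.16 and 3.71 TPM. Of these genes only Entpd6 and Entpd5 exceeded Entpd1 in library 1, and only Entpd6 and Entpd4 did in library 2. Entpd4 had 1500 and 1577 estimated counts but 0 in both libraries in the separate count on GENCODE M4 described below. Its level thus rests on the M21 estimates alone.

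Adora2a was the only adenosine receptor gene detected. Adora2a (ENSMUSG00000020178.6, chr10:75316877-75334784, plus strand), which encodes the receptor coupled to cyclic AMP production, had 29.7 TPM in library 1 and 27.9 TPM in library 2. None of the other 3 receptor genes reached the minimum: Adora2b had 0.05 and 0.16 TPM, Adora3 0.07 and 0.12 TPM, and Adora1 0.01 and 0 TPM. Downstream of the receptor, 15 of 17 listed cyclic AMP genes were detected. Gnas, which encodes the stimulatory G protein subunit, had 673.4 TPM in library 1 and 673.3 TPM in library 2, and Prkar1a, a regulatory subunit of protein kinase A, had 358 and 324 TPM.

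Transport and removal of adenosine were represented unequally. Slc29a1 (ENSMUSG00000023942.15, chr17:45585200-45599606, minus strand) encodes ENT1, the equilibrative transporter that carries nucleosides across the plasma membrane, and had 107 TPM in library 1 and 88.5 TPM in library 2. Adk (ENSMUSG00000039197.10, chr14:21052574-21448569, plus strand), whose enzyme phosphorylates adenosine back to AMP, had 102 TPM in library 1 and 91.6 TPM in library 2. Ada (ENSMUSG00000017697.3, chr2:163726584-163750239, minus strand), whose enzyme deaminates adenosine to inosine, had 11.7 TPM in library 1 and 11.1 TPM in library 2. The kinase gene therefore stood 8.79 times above the deaminase gene in library 1 and 8.28 times above it in library 2. Ada was the lowest of the 10 genes in both libraries and rested on the fewest reads, 400.0 and 372 estimated counts.

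A second transporter stood above Slc29a1. Slc28a2, which encodes the sodium-coupled purine nucleoside transporter CNT2, had 166 TPM in library 1 and 145 TPM in library 2, 1.55 and 1.64 times the level of Slc29a1. Of the 6 listed nucleoside transporter genes other than Slc29a1, with Slc28a2 among them, 3 were detected. Slc29a3, which encodes the lysosomal transporter ENT3, had 15.9 and 12.6 TPM, and Slc29a2, which encodes ENT2, had 1.86 and 1.62 TPM. Slc29a4 had 1.4 and 0.76 TPM, and Slc28a1 and Slc28a3 stayed at or below 0.17 TPM.

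Inside the cell, purine genes were widely detected. Of 22 listed salvage and breakdown genes 17 were detected, led by Nt5c, which encodes a cytosolic deoxynucleotidase, at 305 and 301 TPM in libraries 1 and 2, and by Hprt, the salvage enzyme for hypoxanthine and guanine, at 186 and 174 TPM. All 13 listed genes of purine synthesis were detected, with the highest means for Adsl, adenylosuccinate lyase, at 152 and 148 TPM, and Paics, an enzyme of the common purine branch, at 103 and 104 TPM, although Gart stood above Paics in library 1.

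P2X channels were represented by 2 genes of the family. P2rx7 (ENSMUSG00000029468.17, chr5:122643911-122691432, plus strand) encodes P2X7, the channel opened by high extracellular ATP, and had 112 TPM in library 1 and 98.4 TPM in library 2. P2rx4 (ENSMUSG00000029470.15, chr5:122707544-122729738, plus strand) encodes P2X4, which responds to lower ATP, and had 53.3 TPM in library 1 and 51.5 TPM in library 2. The genes are neighbours on the same strand, with 16111 bases between them, and the P2rx7 level was 2.1 times that of P2rx4 in library 1 and 1.91 times in library 2. None of the other 5 P2X genes was detected: P2rx3 had 0.46 and 0.19 TPM, P2rx5 0.14 and 0.04 TPM, P2rx1 0.02 TPM in each library, and P2rx2 and P2rx6 were listed at 0.

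Of 8 listed P2Y receptor genes 1 was detected. P2ry10, whose product is placed in the P2Y family by sequence and responds to lysophospholipids, had 54.2 TPM in each library. P2ry14 had 1.88 and 0.9 TPM, P2ry13 had 0.74 and 0.08 TPM, and P2ry1, P2ry2, P2ry4, P2ry6 and P2ry12 stayed at or below 0.18 TPM. Among routes of ATP release 3 of 6 listed genes were detected. The highest was Panx1, which encodes the pannexin 1 channel, at 132 and 104 TPM, followed by Slc17a9, the vesicular nucleotide transporter, at 93.0 and 94.8 TPM and Lrrc8a, a volume-regulated anion channel subunit, at 5.55 and 7.83 TPM. Lrrc8a had 499 and 683 estimated counts but 0 in both libraries in the separate count on GENCODE M4. Gja1, Panx2 and Panx3 stayed at or below 0.55 TPM. The 3 listed effectors of P2X7 were all detected. The shedding protease genes Adam10 and Adam17 had 80.6 and 61.0 TPM and 50.5 and 43.8 TPM in libraries 1 and 2, and Ano6, a lipid scramblase gene, had 51.0 and 46.6 TPM.

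The NAD branch held a gene near the top of the order and one near its foot. Art2b (ENSMUSG00000030651.5, chr7:101576970-101585600, minus strand), which encodes the surface mono-ADP-ribosyltransferase ART2.2, had 171 TPM in library 1 and 133 TPM in library 2. Cd38 (ENSMUSG00000029084.5, chr5:43868553-43912375, plus strand), whose product hydrolyses extracellular NAD and so removes the substrate of ART2.2, had 24.6 TPM in library 1 and 22.3 TPM in library 2. The Art2b level was 6.96 times that of Cd38 in library 1 and 5.94 times in library 2, ratios that also depend on the division of reads between the Art2b forms. Bst1, the related NAD hydrolase gene that lies 24566 bases from Cd38, had 0.26 TPM in library 1 and 0 TPM in library 2. Other listed transferase and hydrolase genes were lower than Cd38: Art2a-ps had 14.7 and 13.5 TPM, Art4 5.25 and 4.98 TPM, Art3 2.71 and 2.37 TPM, Sarm1 2.76 and 1.28 TPM, Art5 0.77 and 0.62 TPM, and Art1 0.1 and 0.14 TPM, so that 4 of 7 were detected.

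Genes that make or use NAD inside the cell were mostly detected. Of 11 listed NAD synthesis genes 9 were detected, with NAD kinase, Nadk, highest at 118 and 105 TPM, and Nampt, the rate-limiting enzyme of NAD salvage, at 27.2 and 26.1 TPM. All 9 listed sirtuin and PARP genes were detected, with the highest means for Sirt7, at 251 and 232 TPM, and Parp2, at 65.8 and 74.4 TPM, although Sirt2 and Parp1 stood above Parp2 in library 1. Over all 14 lists 84 of 121 pathway genes were detected, with a median of 14.3 TPM, while the 10 genes had a median of 74.7 TPM. The genes and lists were chosen with earlier results of these data known, so the distance between these medians describes that choice.

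**Figure D2:**
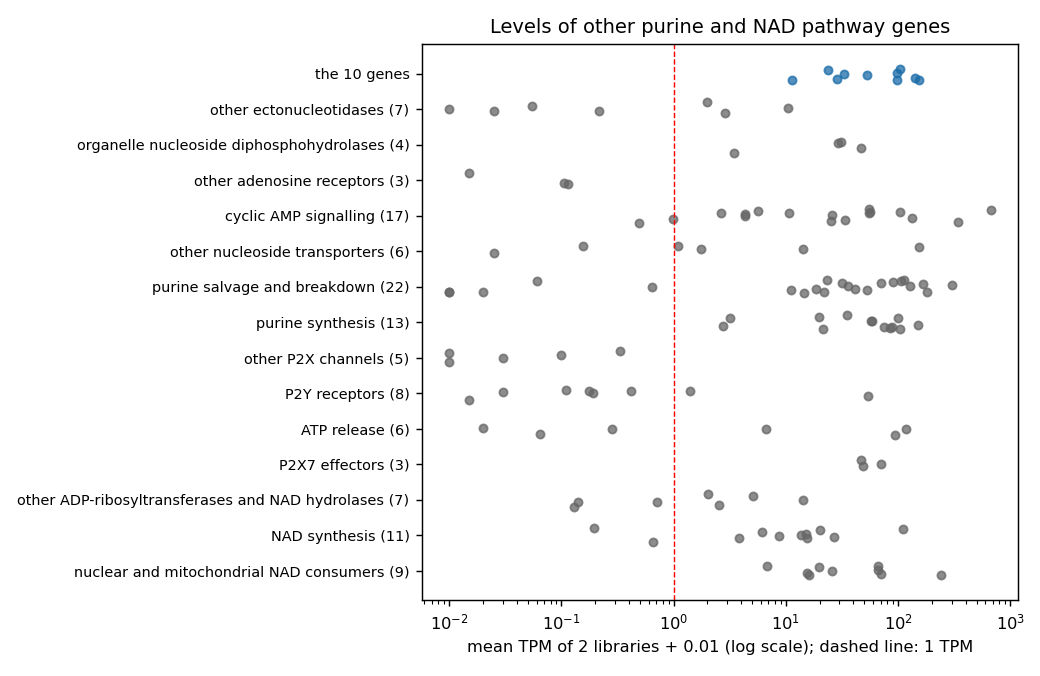
Mean TPM of both libraries plus 0.01 (horizontal, log scale) for the 10 genes (top row) and each of the 121 other pathway genes by list, with the number of genes in brackets and a dashed line at 1 TPM. The other adenosine receptors and other P2X channels all lie left of the line, while all purine synthesis genes lie right of it.

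Art2b has a close paralog beside it. Art2a is listed in GENCODE M21 as Art2a-ps, a polymorphic pseudogene at chr7:101552453-101560865, 16104 bases from Art2b, and was matched through a RefSeq synonym. The coding bases of Art2b-202 and Art2a-ps were identical at 748 of 858 aligned positions, 87.2%, with 3 gap bases. In the reference sequence Art2a-ps has its first in-frame stop at codon 161 of 287, and Art2b has no stop within its 286 codons. The Art2b level was 11.6 times that of Art2a-ps in library 1 and 9.81 times in library 2. Of the 2826 distinct 50-base windows in Art2b transcripts 142 also occur in Art2a-ps, so reads from those windows could be given to either gene. Estimated counts divide such reads by a model, and both levels are uncertain to that extent.

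P2rx7 was spread over several transcripts. P2rx7-203, the full-length form from the upstream first exon, led with 42.1 TPM in library 1 and 35.6 TPM in library 2. P2rx7-208, the form with the alternative first exon, had 25.4 TPM in library 1 and 25.1 TPM in library 2. In the sum of these forms P2rx7-208 made up 37.6% of TPM in library 1 and 41.3% in library 2, but 18.2% and 20.6% of estimated counts. The gap between the measures goes with annotated length: P2rx7-208 is annotated with 0 bases before and 72 bases after the coding sequence, and P2rx7-203 with 163 and 2988. The bases after it include the stop codon. Only 115 of the 1799 windows of P2rx7-208 are found in no other P2rx7 transcript, so its share rests on a small stretch of sequence.

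The proteins of these forms differ at the start alone. Their first coding exons, printed above, were identical at 59 of 115 aligned positions, 51.3%, and the following 1660 coding bases are the same. P2rx7-203 encodes 595 codons and P2rx7-208 encodes 592. P2rx7-202, a short coding form of 4 exons and 153 codons, had 13.2 TPM in library 1 and 10.8 TPM in library 2. P2rx7-205, annotated as a retained intron, had 25.4 TPM in library 1 and 22.1 TPM in library 2. It is a single exon that lies wholly inside the last exon of P2rx7-203, starts 881 bases after the coding end and has no window that other P2rx7 transcripts lack, so its reads cannot be told apart from the 3′ end of P2rx7-203.

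**Figure D3:**
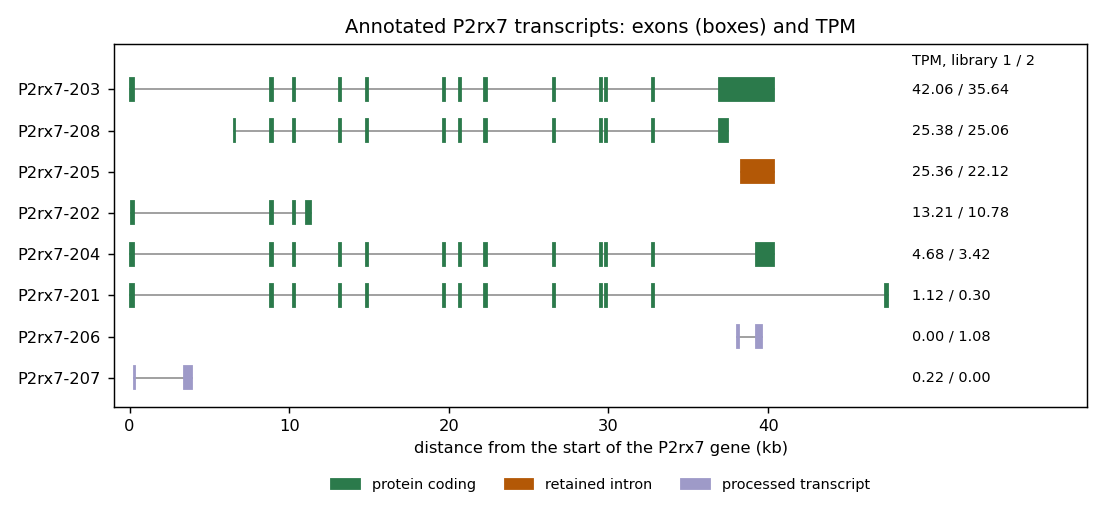
Exons (boxes) of the annotated P2rx7 transcripts against distance from the gene start in kb (horizontal, the shortest exons drawn slightly wide to be visible), coloured by transcript type, with TPM in library 1 and library 2 at the right. P2rx7-208 starts inside the first intron of P2rx7-203, and P2rx7-205 lies within its last exon.

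RefSeq lists a promoter window for each of the P2rx7 starts, 250 bases before to 50 bases after the start, on the GRCm38.p6 build and the plus strand. They are shown because transcripts from both starts were assigned reads in both libraries. Capitals mark GGGCGG, the letters of a GC box, or TATAAA, the letters of a TATA box, searched on both strands. The upstream window, at chr5:122643677-122643976, holds GGGCGG at 2 places and 8 CpG pairs. The alternative window, at chr5:122650133-122650432, holds neither motif and 4 CpG pairs. Over all 32851 windows of this length 35.7% hold GGGCGG and 13.6% hold TATAAA, and the median is 7 CpG pairs.
P2rx7 upstream window: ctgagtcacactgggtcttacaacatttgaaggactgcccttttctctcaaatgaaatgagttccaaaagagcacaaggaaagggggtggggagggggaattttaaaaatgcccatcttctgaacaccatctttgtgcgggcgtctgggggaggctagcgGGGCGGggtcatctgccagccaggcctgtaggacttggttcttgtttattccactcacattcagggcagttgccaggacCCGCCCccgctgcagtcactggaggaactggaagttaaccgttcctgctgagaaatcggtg
P2rx7 alternative window: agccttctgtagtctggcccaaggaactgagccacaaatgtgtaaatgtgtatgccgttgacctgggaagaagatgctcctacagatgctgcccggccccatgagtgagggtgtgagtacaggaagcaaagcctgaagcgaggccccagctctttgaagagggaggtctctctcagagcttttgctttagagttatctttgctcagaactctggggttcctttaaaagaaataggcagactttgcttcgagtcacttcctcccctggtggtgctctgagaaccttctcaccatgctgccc

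Windows were listed for 9 of the 10 genes, 19 in all. GGGCGG is in 11 of the 19, against 35.7% of all windows, and TATAAA in none. The most GGGCGG, at 5 places with 30 CpG pairs, is in 1 of the 8 Slc29a1 windows. The Nt5e window holds GGGCGG at 4 places with 23 CpG pairs, and the pair of Adk windows holds it at 4 places each, with 21 and 33 CpG pairs. The Art2b and Cd38 windows hold no GGGCGG, with 3 CpG pairs and 1. Neither Entpd1 window holds it, with 23 and 10 CpG pairs, and some of the Slc29a1 windows lack it too. A match describes these letters only, and no binding was measured.

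By TPM, Adk was the gene whose leading form changed between the libraries, though its forms were close in library 1. Adk-201, the long form known as nuclear, had 41.5 TPM in library 1 and 21.9 TPM in library 2. Adk-207, the short form known as cytoplasmic, had 40.7 TPM in library 1 and 55.9 TPM in library 2. In the sum of both Adk-201 made up 50.4% in library 1 and 28.1% in library 2 (39.3% ± 15.8, SD, n = 2). By estimated counts, with 1519 for Adk-201 and 1523 for Adk-207 in library 1, and by posterior mean TPM, with 37.5 and 38.6, Adk-207 led in both libraries. The credibility intervals of posterior mean TPM, of unstated level, overlapped between the libraries for each form. They ran from 28.4 to 46.7 and from 10.9 to 29.6 for Adk-201, and from 30 to 47.7 and from 42 to 60.8 for Adk-207, in libraries 1 and 2. The level of the whole gene had a ratio of 1.12 between the libraries. The forms encode 361 and 345 codons and have the same coding sequence after their first coding exons, and 44 windows of Adk-201 and 167 of Adk-207 are found in no other Adk transcript. The cause of this difference between technical libraries was not tested.

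In the other genes the split between forms differed less between the libraries. Slc29a1-202, with 458 codons, had 49.2 TPM in library 1 and 46.1 TPM in library 2, and Slc29a1-203, with 460 codons, had 34.5 and 18.8 TPM. With Slc29a1-213, at 12.4 and 12.1 TPM, they made up most of the gene, and Slc29a1-202 took 51.2% of the 3 in library 1 and 59.9% in library 2. This split rests on little sequence, since 0 windows of Slc29a1-202, 24 of Slc29a1-203 and 52 of Slc29a1-213 are found in no other Slc29a1 transcript. Slc29a1 has 25 annotated transcripts, 11 of them listed at 0 in both libraries. Art2b-202, with 286 codons, had 85.7 TPM in library 1 and 70.6 TPM in library 2, and Art2b-201, with 289 codons, had 85.3 and 62.1 TPM. By estimated counts Art2b-202 took 77.2% and 79.3% of the gene, since Art2b-201 is annotated with only 3 bases after its coding sequence against 1893 for Art2b-202. The coding bases leave out the stop codon, so these 3 bases are no more than its length. Only 57 of the 821 windows of Art2b-201 are absent from Art2b-202.

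Entpd1 also changed leader with the measure. Entpd1-204, with 539 codons, had 12.6 TPM in library 1 and 9.72 TPM in library 2, and Entpd1-201, with 510 codons, had 9.74 and 8.28 TPM. Entpd1-204 made up 56.4% and 54% of these forms by TPM, but 42.2% and 39.9% by estimated counts. Only 45 of the 2360 windows of Entpd1-204 are found in no other Entpd1 transcript, against 1837 of 4172 for Entpd1-201. The noncoding forms Entpd1-206 and Entpd1-208 had 6.47 and 6.81 TPM and 4.92 and 4.5 TPM.

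The remaining genes had 1 main form, P2rx4 excepted. Nt5e-201 made up 85.4% of the TPM of its gene in library 1 and 88.2% in library 2, Adora2a-201 98.8% and 97.9%, and Ada-201 98.6% and 100%. Cd38-201 made up 88% and 79.6%, the rest being the retained-intron form Cd38-202. In P2rx4, forms annotated as coding had a TPM share of 55.9% in library 1 and 53.4% in library 2. Its leading form P2rx4-202 had 21.6 and 20.3 TPM, the retained-intron form P2rx4-208 had 10.8 and 8.87 TPM, the coding form P2rx4-206 had 6.28 and 6.1 TPM, and the noncoding form P2rx4-205 had 5.78 and 6.24 TPM. By estimated counts P2rx4-208 led in library 1, with 879 against 838 for P2rx4-202, and P2rx4-202 in library 2, with 764 against 700.0 for P2rx4-208. P2rx4-202 and P2rx4-206 have no 50-base window that other P2rx4 transcripts lack. By mean TPM the leading transcript was protein-coding in 10 of 10 genes, against 87.2% of detected protein-coding genes.

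**Figure D4:**
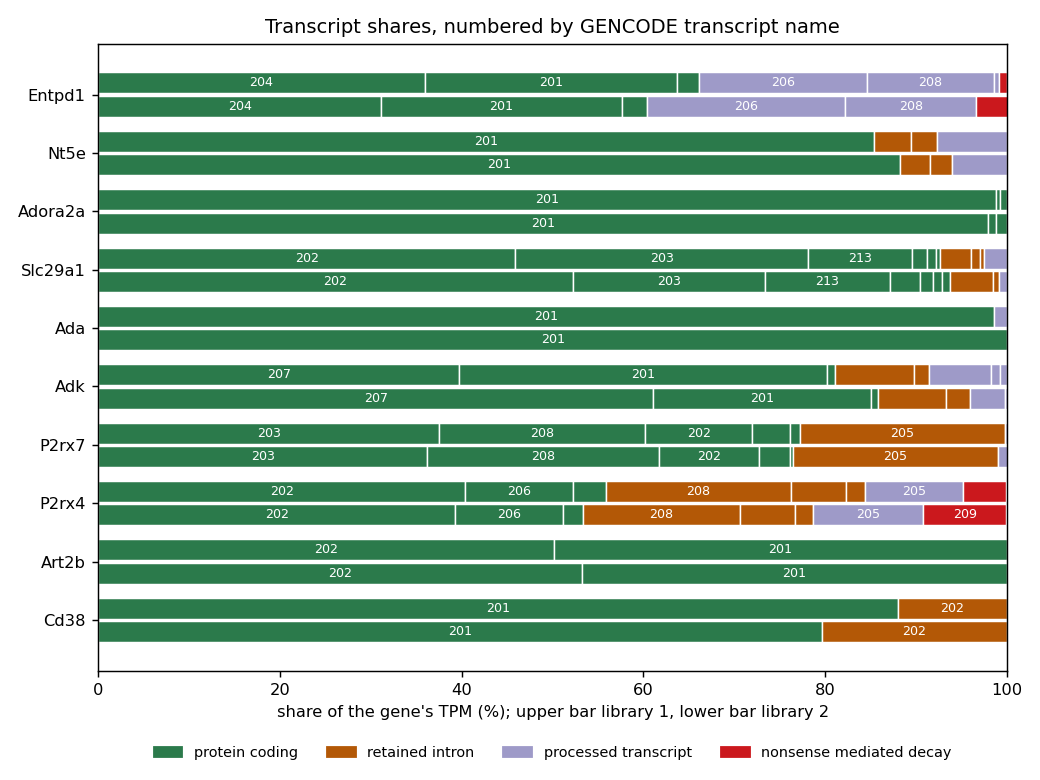
Share of each gene's TPM (horizontal, percent) by transcript, with library 1 in the upper bar and library 2 in the lower bar of each pair, coloured by transcript type and numbered by GENCODE transcript name where a share is at least 9%. The Adk bars differ most between libraries, with Adk-201 smaller in library 2, and P2rx4 has the largest share of forms not annotated as coding among the 10 genes.

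The libraries gave close levels for all 10 genes. None differed by 1.5-fold or more in TPM, against 6.72% of 12239 genes with at least 100 summed counts and 1.21% of the 8264 genes within the same range of counts, 772 to 21526. The ratio of library 1 over library 2 was lowest for P2rx4, at 1.03 with a 95% counting interval of 0.971 to 1.1. It was highest for Art2b, at 1.29 with an interval of 1.24 to 1.34, followed by Slc29a1 at 1.21 with an interval of 1.16 to 1.27. Intervals are exact binomial ones, and since PCR copies are not independent molecules they cover counting error only. By TPM all 10 genes were higher in library 1, against 63.7% of genes, but this direction depended on the scale. With estimated counts scaled by TMM factors 9 of 10 were higher, against 51% of genes, with Ada at 0.993. With whole counts on GENCODE M4 scaled to library totals 6 of 10 were higher, against 46.3% of genes, with Adora2a lowest at 0.964. The highest ratio also depended on the scale. With TMM factors it was that of Art2b, at 1.19, and with M4 counts that of Cd38, at 1.18, with Art2b below it.

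**Figure D5:**
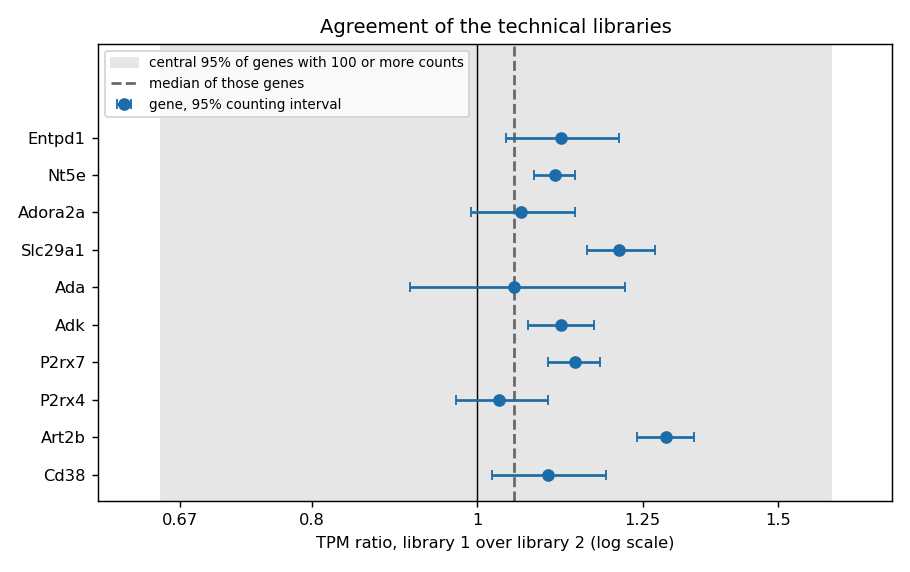
TPM ratio of library 1 over library 2 (horizontal, log scale) for each gene with its 95% counting interval, the median of 1.05 over genes with 100 or more summed counts (dashed) and their central 95%, from 0.653 to 1.61 (grey). All 10 genes lie within the grey band, Art2b farthest to the right at 1.29.

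A separate count of the same libraries on the older GENCODE M4 annotation, from genome alignments, gave other proportions. Over all matched genes M4 counts came to 28.9% of the M21 estimated counts in library 1 and 29.4% in library 2. Among the 10 genes this share ran from 17.9% and 20.3% for Art2b to 71.5% and 72.3% for Ada. In both libraries 6 of 10 genes, Entpd1, Adora2a, Ada, Adk, P2rx4 and Slc29a1, took a higher share of M4 than of M21 counts, against 70.8% of detected genes. Nt5e had 2557 and 2470 M4 counts and Ada 286 and 269, so their distance was smaller in these counts than in estimated counts. M4 counts were no fixed part of estimated counts. The T cell genes Trac and Cd3e, with the most estimated counts of the listed genes, had 40001 and 34030 in library 1 but 1359 and 1270 M4 counts. How far the M4 shares of the 10 genes go with their number of counts was not tested.

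Depth was 34697128 estimated counts on annotated genes in library 1 and 32049199 in library 2. Of the markers of the labelled cell type, 8 of 8 listed Treg genes and 6 of 6 T cell genes were detected, against 48.0% of protein-coding genes. The Treg genes summed to 3324 and 3242 TPM in libraries 1 and 2, with Foxp3, the defining transcription factor, at 108 and 111 TPM. The T cell genes summed to 5956 and 5546 TPM. Some of the 10 genes are also known in other blood cells, among them Entpd1 and Cd38 in B and myeloid cells, Nt5e in other lymphocytes and P2rx4 and P2rx7 in myeloid cells. Levels of their markers are sums over the whole list, in libraries 1 and 2, whether or not each gene was detected. The 8 B cell genes, of which 5 were detected, summed to 49 and 44.1 TPM, mostly Cd79b. The 9 myeloid genes, of which 2 were detected, summed to 21.3 and 20.7 TPM, mostly Lyz2. Both CD8 genes were detected and summed to 25.8 and 26.1 TPM, mostly Cd8b1, while Cd8a had 1.69 and 2.84 TPM. The 5 NK cell genes, of which 2 were detected and Ncr1 was at 0 in both libraries, summed to 3.95 and 3.22 TPM, and the 6 dendritic cell genes, of which 1 was detected, to 3.16 and 2.35 TPM. None of 4 plasma cell genes was detected, at 1.26 and 1.14 TPM in sum, nor any of 4 platelet genes, at 1.59 and 2 TPM, or of 8 genes of stroma and endothelium, at 0.86 and 0.57 TPM. The part of such cells in the levels of the 10 genes was not tested, and in bulk RNA more cells of a type and more RNA per cell cannot be told apart.

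Of the 10 genes, 7 shared 50-base windows with another gene. Entpd1, Adora2a and Ada shared none, and Nt5e, Adk, P2rx7, P2rx4 and Cd38 shared at most 1.63%. Art2b had the largest share, 165 of 2826 windows or 5.84%, mostly with Art2a-ps as given above. Slc29a1 shared 178 of 4534 windows, 3.93%, with Gm17080, an antisense gene listed with 0.23 and 0.56 TPM in libraries 1 and 2. The strandedness is not given in the sources used here, so reads of the overlap could belong to either gene. The other overlapping genes were Gm8783 in Entpd1, at 1.93 and 0 TPM, Gm16014 and Gm16015 in Cd38, both at or below 0.57 TPM, Gm26372 in Adk, at 0 and 0.26 TPM, and Gm16027, AC166063.1 and Mir8115, listed at 0.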

How the data were processed

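PolyA-selected RNA of 1 Treg biosample was measured in 2 technical libraries. The authors deposited gene and transcript tables on mm10 with GENCODE M21 that hold, per the file headers, estimated counts, TPM, FPKM and posterior mean TPM with a credibility interval whose level is not stated. FPKM, per the file headers, scales fragments by length and library size. The authors also deposited whole-number counts per gene on GENCODE M4, from genome alignments per the deposited file lists. Of aligner, quantifier, counter, versions, read length and strandedness nothing is stated: not given in the sources used here. Effective length equalled length less 49 bases in 100% of transcripts. Rows naming no gene took 0.197% and 0.212% of estimated counts in libraries 1 and 2 and were left out of totals.

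Estimated counts were rounded to whole numbers for intervals (exact binomial, 95%, SciPy 1.17.1). TMM factors came from edgeR 4.0.16 over genes whose counts summed to at least 10. Detection meant 1 TPM or more in both libraries. Transcripts with at least 10% of a gene's mean TPM were named, as were the 2 highest detected genes of each list and all genes of lists of up to 8. Shared sequence was counted as identical 50-base windows of GENCODE M21 transcripts. Coordinates are 1-based, from GENCODE M21 on GRCm38, and promoter windows are from RefSeq. No test between groups was run, since the libraries share 1 biosample. The members and lists were chosen with earlier results of these data known. Alternatives covered the detection minimum, unit, estimator, scaling, fold, count minimum and leaving out each library.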

Additional observations from a re-analysis of the deposited data

How the results depend on the processing

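At a log2 TPM ratio of 0.32 or more in place of the 1.5-fold limit, 1 of the 10 genes, Art2b, differed between the libraries, against 0 at 1.5-fold. The share of all genes past the lower limit was not taken, so this count cannot be set against a background. The Art2b ratio of 1.29 lay within the central 95% of genes, 0.653 to 1.61. At 1.5-fold, TMM-scaled estimated counts, M4 counts scaled to library totals, no count minimum and log2(TPM + 1) left the number at 0. All 10 genes were detected, and all 10 had a protein-coding leading transcript, under each alternative run and without either library. Of the 121 pathway genes 84 were detected, 71 at a minimum of 5 TPM, 98 at 0.1 TPM, 82 by FPKM, 87 by posterior mean TPM, and 84 to 87 without 1 library. Genes with a higher share of M4 counts numbered 6, 4 when genes of 10000 or more counts left the totals, and 6 to 7 without 1 library. The order of the 10 genes by FPKM, by posterior mean TPM and in library 1 was that given above, while in library 2 Nt5e stood above Art2b and Adk above Slc29a1. FPKM moved all 10 levels by more than the SD, but within a library it is TPM times a factor common to all genes. That move, and the same order by FPKM as by TPM within a library, therefore follow from the unit. Posterior mean TPM moved 3 levels by more than the SD, those of Ada, Adora2a and P2rx4, which had the smallest SDs. Art2b, with the largest SD, went from 152 to 141 TPM and did not count as moved. No paired analysis was possible because there is 1 group. Depth limits Ada most, and no biological spread can be had.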
